A study of Mus musculus with 463 samples.

Results

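The 36 genes described here encode the chaperones of the endoplasmic reticulum (ER), the sensors and effectors of the unfolded protein response (UPR), the ER-associated degradation machinery and the channel that admits secreted proteins to the ER. They were taken as a list of symbols, and all 36 were present among the 40824 genes of the bulk and single-cell count tables of a study of the dorsal and ventral mouse pancreas. They comprised 10 ER chaperones, 6 lectin chaperones and disulfide isomerases, 7 UPR sensors and effectors, 7 ER-associated degradation genes, and 6 subunits of the translocon and of the translocon-associated protein (TRAP) complex. The bulk data were 16 libraries in 8 groups of 2, made from sorted dorsal or ventral cells. These were Pdx1-GFP+ cells at E10.5, Ngn3-GFP-low and Ngn3-GFP-high cells at E14.5, and Ins1-RFP+ cells at E17.5, where the fluorescent protein reports the pancreatic progenitor factor Pdx1, the endocrine progenitor factor Ngn3 or insulin. The single-cell data were 447 Smart-seq2 cells in 12 sorted groups and 41 numbered sets. They came from E9.5 and E10.5 Pdx1-GFP embryos of either side (Pdx1+, Pdx1-high or Pdx1-low), from ventral Pdx1-low cells split by the liver antigen Liv2, from E10.5 liver bud sorted as Liv2+, and from E15.5 liver carrying Pdx1-Cre and ROSA26-tdTomato. No treatment is given for any group. Ins1+ and Ngn3-high cells differ in both embryonic day and reporter, so the effects of age and of the sort cannot be told apart. The labels do not say whether libraries or sets came from separate embryos or litters, so the p-values measure the spread between these samples.

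Secreted and membrane proteins enter the ER through the Sec61 channel, with the TRAP complex beside it, and fold there with the help of the Hsp70 chaperone BiP (Hspa5), the Hsp90 chaperone Grp94 (Hsp90b1), the lectin chaperones calnexin and calreticulin, and disulfide isomerases. When unfolded protein accumulates, the membrane sensors IRE1 (Ern1), PERK (Eif2ak3) and ATF6 signal through spliced Xbp1, translated Atf4 and cleaved ATF6 to raise the transcription of chaperones and degradation genes. Beta cells, acinar cells and hepatocytes secrete large amounts of protein, and loss of PERK or of Xbp1 is known to impair pancreatic secretory cells. Splicing, cleavage and phosphorylation, the steps by which the sensors are activated, were not measured here, since the values are reads per gene.

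ATF6 and spliced Xbp1 are known to act through the ER stress response element (ERSE). The promoters below are shown because they hold that element, or in Herpud1 the related ERSE-II, and belong to members that rose together in Ins1+ cells. RefSeq promoter windows (GRCm38.p6, 250 bases before to 50 after the start) were on hand for 30 of the 36 genes, and were searched on both strands. The ERSE, CCAAT and CCACG with 9 bases between them, was found in 9 of the 30 (30%), Calr, Canx, Creld2, Derl3, Dnajc3, Hsp90b1, Hspa5, Pdia6 and Syvn1, against 39 of all 32851 windows (0.119%). The related ERSE-II, ATTGG and CCACG with 1 base between them, was found in Dnajb11 and Herpud1 (6.67%), against 12 of all windows (0.0365%). The UPRE core TGACGTGG was in 0 of the 30 and in 222 of all windows (0.676%), and the C/EBP-ATF letters TGATGNAAN were in Herpud1 and Trib3 and in 1299 of all windows (3.95%). A match is a description of the letters, not evidence of a bound site. Members were counted as genes and the background as windows. The list was itself chosen as ER and UPR genes, so these shares are not a test. Each stretch below is written 5′ to 3′ on the gene's strand, with the ERSE in capitals (in Herpud1, the C/EBP-ATF letters and then the ERSE-II).
Hspa5: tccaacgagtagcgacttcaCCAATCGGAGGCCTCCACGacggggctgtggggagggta
Dnajc3: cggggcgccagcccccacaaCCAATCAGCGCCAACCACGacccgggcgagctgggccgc
Canx: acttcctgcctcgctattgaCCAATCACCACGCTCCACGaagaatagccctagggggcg
Creld2: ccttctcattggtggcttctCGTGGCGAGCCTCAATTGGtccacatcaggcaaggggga
Derl3: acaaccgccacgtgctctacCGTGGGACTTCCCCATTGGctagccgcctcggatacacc
Herpud1: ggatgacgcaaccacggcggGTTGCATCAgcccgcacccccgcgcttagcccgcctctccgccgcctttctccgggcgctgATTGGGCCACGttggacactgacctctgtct
The Hspa5 stretch is chr2:34772005-34772063 (plus strand), and the one of Dnajc3 is chr14:118937807-118937865 (plus strand). That of Canx is chr11:50325780-50325838 (minus strand), Creld2 is chr15:88819500-88819558 (plus strand), Derl3 is chr10:75893222-75893280 (plus strand) and Herpud1 is chr8:94386296-94386407 (plus strand). In Creld2 and Derl3 the element reads CGTGG before ATTGG, which is the same element on the other strand. The first printed base lies 85 bases before the annotated start in Hspa5, 125 in Dnajc3, 165 in Canx, 146 in Creld2, 176 in Derl3 and 133 in Herpud1.

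Gene counts per bulk library summed to between 8779418 and 24551520, and a single cell held a median of 1064163 reads. Levels below are CPM, the reads of a gene relative to the TMM-scaled total of its library or set. For a single cell, CPM is relative to the plain total of the cell's reads on genes. Changes were tested by the quasi-likelihood method of edgeR, with p adjusted by Benjamini and Hochberg over all 17690 genes tested in bulk or 19285 in sets, at an adjusted p of 0.05. All 36 genes passed the filter on low counts in both. The sorted labels were checked on defining genes. Ins1 was 24170 to 29050 CPM in dorsal and 25870 to 31330 CPM in ventral Ins1+ libraries and at most 1.82 CPM in Ngn3-low ones. Gcg was 22490 to 48960 CPM in the 6 sets of dorsal Pdx1-low cells and at most 104.0 CPM in dorsal Pdx1-high sets, with the alpha-cell list (12 genes) summing to 29430 to 55660 against 38.36 to 473.9 CPM. Afp was 24950 to 35350 CPM in liver bud sets. Bulk libraries hold mixed cells, in which fewer cells of a type and less RNA per cell cannot be told apart.

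The 36 genes together took a small and steady share of reads until E17.5. They took 0.922% ± 0.0144 (SD, n = 2 here and for the other bulk groups) of reads in dorsal and 0.837% ± 0.0476 in ventral Pdx1+ cells at E10.5. The share was 1.03% ± 0.0283 and 0.988% ± 0.0185 in dorsal and ventral Ngn3-low cells, and 1.14% ± 0.0361 and 1.16% ± 0.0573 in Ngn3-high cells. In Ins1+ cells it was 2.62% ± 0.109 on the dorsal and 2.70% ± 0.175 on the ventral side, more than in any library of the earlier groups. Over the same steps the share of 17 endocrine cargo genes (hormones, granins and prohormone processing enzymes) went from 0.0339% and 0.0247% in dorsal and ventral Ngn3-low cells to 1.86% and 1.88% in Ngn3-high and 9.37% and 9.63% in Ins1+ cells. Cargo had thus already gained most of its fold by the Ngn3-high stage, while the ER genes gained most of theirs after it. These shares are a description, without a test.

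**Figure D1:**
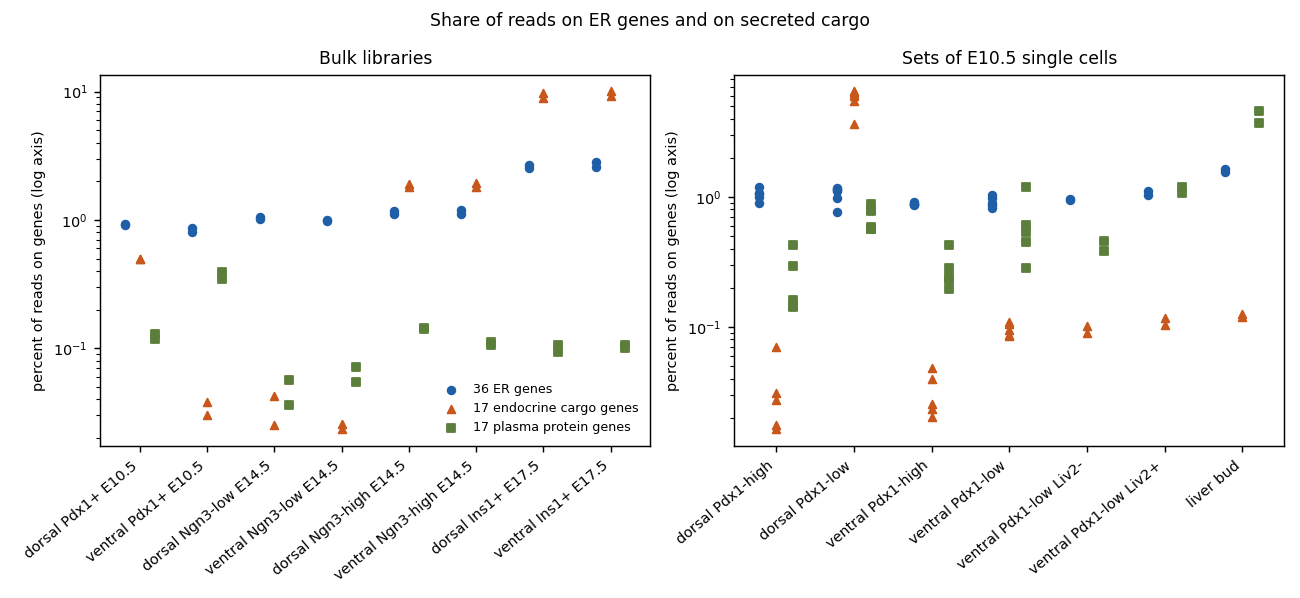
Percent of reads on genes (log axis) taken by the 36 ER genes (circles), 17 endocrine cargo genes (triangles) and 17 plasma protein genes (squares), by sorted group. Each point is a bulk library (left) or a set of E10.5 cells (right), and the ER genes stand highest in Ins1+ libraries, at 2.62% and 2.70% on average, and in liver bud sets, at 1.59%.

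From Ngn3-low to Ngn3-high cells at E14.5, the members split. On the dorsal side 20 rose and 4 fell, and on the ventral side 22 rose and 2 fell, where 61.3% and 61.8% of all genes tested changed in either direction. Of all genes 29.2% and 29.5% rose and 32.1% and 32.4% fell. All 20 that rose on the dorsal side were among the 22 of the ventral side. The median member log2 change was 0.43 on the dorsal and 0.49 on the ventral side, a 1.35-fold and a 1.40-fold difference, with the median of all genes at -0.01 and 0.00. By role, ER chaperones rose in 7 of 10 on the dorsal and 8 of 10 on the ventral side, degradation genes in 5 of 7 on both, UPR genes in 3 and 4 of 7, translocon and TRAP genes in 3 of 6 on both, and lectin chaperones and isomerases in 2 of 6 on both.

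Hyou1, an Hsp70-like exchange factor for BiP, showed the clearest chaperone change at this step. Its dorsal levels were 302.6 and 284.0 CPM in Ngn3-low and 675.2 and 711.5 CPM in Ngn3-high libraries, and its ventral levels were 303.0 and 281.4 against 694.3 and 731.9 CPM. No library overlapped, and the log2 changes were 1.24 (SE 0.08, edgeR adjusted p = 1.59e-09) and 1.29 (adjusted p = 9.55e-10). BiP itself, Hspa5, was 1027 and 932.2 CPM in dorsal Ngn3-low and 1403 and 1440 CPM in dorsal Ngn3-high libraries, and 973.3 and 886.5 against 1430 and 1449 CPM on the ventral side. It rose by 0.54 (SE 0.14) and 0.63 (SE 0.14). Manf, a small ER protein that binds BiP and is known as a secreted neurotrophic factor, rose, from 106.0 and 102.3 to 198.8 and 223.2 CPM on the dorsal side and from 105.6 and 87.43 to 211.4 and 218.3 CPM on the ventral side. Dnajb9, a BiP co-chaperone, went from 29.11 and 25.49 to 57.34 and 54.75 CPM on the dorsal side (log2 change 1.04, SE 0.21), and from 24.67 and 28.69 to 60.39 and 66.07 CPM on the ventral side. Creld2, a disulfide isomerase-like ER protein, went from 54.57 and 53.23 to 100.0 and 103.1 CPM (dorsal) and from 58.15 and 48.84 to 101.9 and 99.49 CPM (ventral), a log2 change of 0.91 on both sides.

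Among the sensors, Ern1, which encodes the endonuclease IRE1 that splices Xbp1 mRNA, rose most. Ern1 stood at 67.45 and 77.41 CPM in dorsal Ngn3-low and at 207.7 and 210.4 CPM in dorsal Ngn3-high libraries, and at 68.38 and 80.91 against 229.0 and 224.6 CPM on the ventral side. The log2 changes were 1.53 (SE 0.12) and 1.60. Atf6, the sensor that is cleaved in the Golgi to a transcription factor, rose from 80.96 and 89.18 to 149.4 and 163.8 CPM on the dorsal side and from 79.00 and 91.99 to 155.0 and 175.3 CPM on the ventral side, with log2 changes of 0.88 and 0.95. Eif2ak3, which encodes the translation-limiting kinase PERK, did not pass the test: it was 42.80 and 39.89 CPM in dorsal Ngn3-low, 37.68 and 37.60 CPM in dorsal Ngn3-high, 37.56 and 35.50 CPM in ventral Ngn3-low, and 37.04 and 40.29 CPM in ventral Ngn3-high libraries. Of the 3 sensor genes, 2 rose with Ngn3 and PERK showed no detectable change. Xbp1, the target of IRE1, was 194.1 and 144.0 against 136.9 and 124.2 CPM on the dorsal side and 178.9 and 133.0 against 126.9 and 119.8 CPM on the ventral side. Its mRNA was lower in each Ngn3-high library than in the Ngn3-low libraries of the same side, without passing the test (log2 changes -0.37 and -0.34, adjusted p = 0.0546 and 0.0775).

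Members of lower level also rose. Sdf2l1, which stabilises BiP complexes, was 38.22 and 31.56 against 54.35 and 60.72 CPM on the dorsal side and 37.49 and 23.18 against 53.77 and 57.03 CPM on the ventral side. Ddit3 was 4.89 and 3.19 against 8.46 and 7.34 CPM and 4.92 and 5.45 against 11.16 and 8.07 CPM. Both genes passed the test on both sides, without overlap between the libraries. In the translocon, Sec61b was 55.00 and 52.54 CPM in dorsal and 54.59 and 50.20 CPM in ventral Ngn3-low libraries, and Ssr4 68.51 and 61.25 and 68.90 and 56.31 CPM. They rose in Ngn3-high cells by 0.76 and 0.83 and by 0.53 and 0.56 on the log2 scale. On the dorsal side 12 members did not pass the test: Hsp90b1, Dnajc10, Pdia4, Pdia6, P4hb, Eif2ak3, Xbp1, Atf4, Trib3, Herpud1, Ssr3 and Sec61a1. Among them Herpud1 was 47.20 and 36.76 against 60.32 and 57.60 CPM, Atf4 143.3 and 145.8 against 154.8 and 160.7 CPM, and Trib3 2.48 and 1.82 against 0.94 and 1.28 CPM.

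The members that fell at this step were Edem1 and Canx on both sides, and Dnajc3 and Ssr1 on the dorsal side. Edem1, a mannosidase-like protein that hands misfolded glycoproteins to degradation, was 166.6 and 147.7 CPM in dorsal Ngn3-low and 78.75 and 74.47 CPM in dorsal Ngn3-high libraries, and 155.3 and 142.4 against 83.00 and 83.71 CPM on the ventral side. It fell by 1.03 (SE 0.10) and by 0.84 on the log2 scale. Other degradation genes moved the opposite way. Sel1l, the partner of the ubiquitin ligase Syvn1, rose from 200.8 and 210.7 to 373.2 and 367.4 CPM (dorsal) and from 184.4 and 203.7 to 408.0 and 420.1 CPM (ventral), and Derl3, a derlin of the retrotranslocation machinery, rose from 1.55 and 1.69 to 7.89 and 8.71 CPM (dorsal) and from 1.43 and 1.07 to 8.26 and 7.59 CPM (ventral). Canx, which encodes calnexin, was 946.2 and 971.4 against 716.6 and 758.2 CPM on the dorsal side and 886.4 and 925.2 against 750.8 and 816.0 CPM on the ventral side. Its dorsal log2 change was -0.38 (SE 0.08), and its ventral change of -0.21 was lost when any of 3 of the 4 libraries was left out (adjusted p up to 0.334). Dnajc3, the PERK inhibitor p58IPK, was 206.8 and 200.0 against 160.2 and 168.3 CPM on the dorsal side and 174.9 and 190.3 against 144.2 and 178.3 CPM on the ventral side. Its dorsal log2 change of -0.31 had an adjusted p of 0.0482 and was lost without any 1 of the 4 libraries (adjusted p up to 0.192). The calls of Sdf2l1 and Pdia3 on the dorsal side were lost in the same way (adjusted p up to 0.174 and 0.169), and those of Ddit3 in some of the omissions on each side (up to 0.139 dorsal and 0.153 ventral).

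Markers of other cells differed between the same libraries. A list of acinar genes (12 of 13 tested) summed to 4217 to 4815 CPM in dorsal and 3452 to 3954 CPM in ventral Ngn3-low libraries, against 153.4 to 158.0 and 49.08 to 66.79 CPM in Ngn3-high ones, and Try4 and Gp2 were at 0 in dorsal Ngn3-high cells. On both sides 11 acinar genes fell. A list of 10 endothelial genes summed to 444.8 to 887.3 and 288.6 to 963.6 CPM in dorsal and ventral Ngn3-low libraries and to 8.71 to 15.9 and 7.47 to 13.8 CPM in Ngn3-high ones. The part of these cells in the member changes was not tested.

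From Ngn3-high cells at E14.5 to Ins1+ cells at E17.5, nearly the whole list rose. On the dorsal side 35 of 36 rose and on the ventral side 32 of 36, and none fell, where 47.4% and 51% of all genes changed and 24.4% and 26.6% rose. All 32 of the ventral side were among the 35 of the dorsal side. The median member log2 change was 1.33 on both sides (2.52-fold and 2.51-fold) beside 0.00 and 0.01 for all genes. On the dorsal side every ER chaperone (10), lectin chaperone and isomerase (6), degradation gene (7) and translocon or TRAP gene (6) rose, and 6 of 7 UPR genes did. On the ventral side the counts were 9, 6, 6, 6 and 5.

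**Figure D2:**
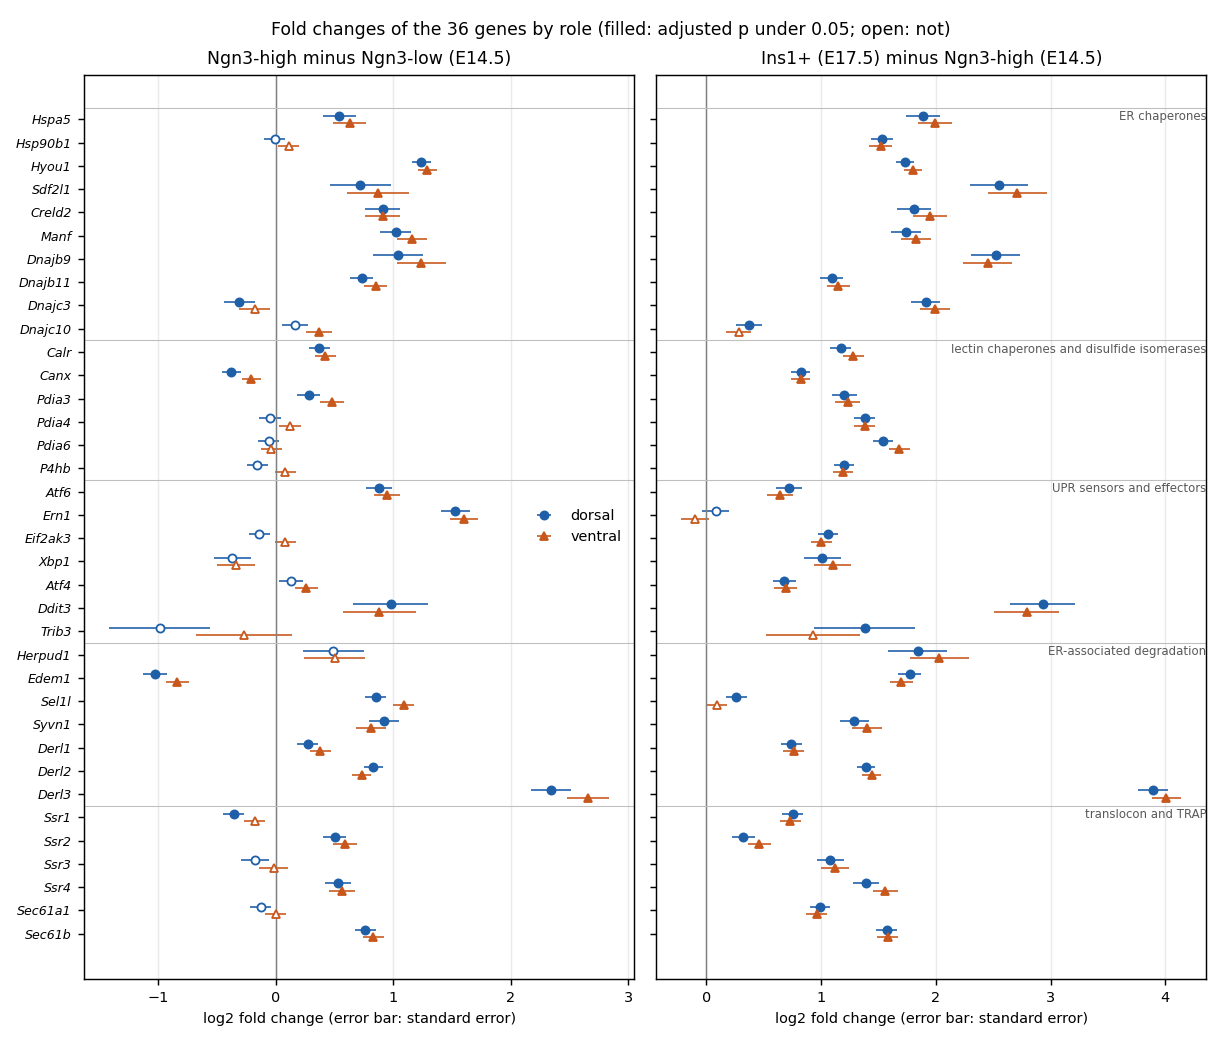
Log2 fold changes of the 36 genes, ordered by role, for the dorsal (circles) and ventral (triangles) bulk libraries, with standard errors; filled symbols passed the test. The left panel spreads to both sides of 0 (Edem1 at -1.03 on the dorsal side, Derl3 at 2.34), while in the right panel all dorsal values lie above 0 and Derl3 reaches 3.89 and 4.01.

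Derl3 changed most. It stood at 7.89 and 8.71 CPM in dorsal Ngn3-high and 117.7 and 127.1 CPM in dorsal Ins1+ libraries, and at 8.26 and 7.59 against 118.5 and 137.1 CPM on the ventral side. The differences were 14.8-fold (log2 3.89, SE 0.13, edgeR adjusted p = 1.93e-12) and 16.1-fold (log2 4.01, adjusted p = 1.15e-12). Against Ngn3-low cells of the same side, where it was lowest, Derl3 was 75.1-fold and 102.3-fold higher. Herpud1, another degradation component, was 60.32 and 57.60 against 168.5 and 255.3 CPM on the dorsal side and 58.38 and 55.29 against 168.5 and 296.9 CPM on the ventral side (log2 changes 1.84 and 2.03). Edem1, which had fallen at the step before, was 243.4 and 280.2 CPM in dorsal and 254.1 and 286.2 CPM in ventral Ins1+ libraries, with log2 rises of 1.77 and 1.70. Syvn1 rose from 118.3 and 110.6 to 259.8 and 299.0 CPM (dorsal) and from 123.9 and 108.5 to 268.7 and 343.5 CPM (ventral).

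BiP had the highest level of the list in Ins1+ cells. Hspa5 was 4606 and 5922 CPM in dorsal and 4701 and 6732 CPM in ventral Ins1+ libraries, 3.70-fold and 3.97-fold above Ngn3-high cells (log2 1.89 and 1.99, SE 0.15). Per length, in the authors' deposited table, Hspa5 had the highest RPKM of the 36 genes in Ins1+ cells, at 1787 in dorsal and 1885 in ventral cells, and Trib3 the lowest, at 1.25 and 1.43. In E10.5 dorsal Pdx1+ cells that table placed Calr first, at 416.9, and Hspa5 second, at 404.0. Grp94 (Hsp90b1), whose level had not passed the test at the step before, was 1128 and 1218 against 3256 and 3525 CPM on the dorsal and 1138 and 1275 against 3211 and 3708 CPM on the ventral side. Hyou1 was 2322 and 2290 CPM in dorsal and 2403 and 2573 CPM in ventral Ins1+ libraries, and was 7.86-fold and 8.52-fold above Ngn3-low cells.

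Sdf2l1 and Dnajb9 had the largest folds among the chaperones. Sdf2l1 was 54.35 and 60.72 against 287.0 and 387.8 CPM on the dorsal side and 53.77 and 57.03 against 296.4 and 427.6 CPM on the ventral side, 5.88-fold and 6.52-fold. Dnajb9 reached 259.0 and 387.4 CPM in dorsal and 281.2 and 411.1 CPM in ventral Ins1+ libraries, 5.75-fold and 5.46-fold. Dnajc3 was 552.8 and 683.0 CPM and 555.8 and 730.0 CPM, 3.76-fold and 3.98-fold above Ngn3-high cells. Creld2 reached 309.4 and 401.7 CPM (dorsal) and 324.1 and 456.0 CPM (ventral), and Manf 635.7 and 772.8 CPM and 662.8 and 862.9 CPM, with log2 changes between 1.74 and 1.95 for the 2 genes on both sides. In each of these genes every Ins1+ library lay above every Ngn3-high library. Dnajc10, a reductase of the degradation pathway, was the exception among the chaperones: it was 188.7 and 213.4 against 273.2 and 245.3 CPM on the dorsal side (log2 0.37, lost without Ngn3-high library 1 or Ins1+ library 1, adjusted p up to 0.154) and 193.3 and 241.3 against 274.5 and 251.8 CPM on the ventral side (0.28, adjusted p = 0.0538).

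The lectin chaperones and disulfide isomerases all rose. On the dorsal side their log2 changes ran from 0.82 for Canx to 1.54 for Pdia6, and on the ventral side from 0.82 to 1.68 for the same genes. Calr, which encodes calreticulin, was 993.7 and 997.6 CPM in dorsal Ngn3-high and 2196 and 2289 CPM in dorsal Ins1+ libraries, and 947.2 and 1029 against 2254 and 2544 CPM on the ventral side. Canx reached 1258 and 1338 CPM in dorsal and 1320 and 1453 CPM in ventral Ins1+ libraries. At the entry to the ER, Sec61b, a subunit of the channel, was 95.34 and 86.58 against 259.8 and 282.2 CPM on the dorsal side and 96.46 and 89.73 against 273.3 and 282.5 CPM on the ventral side, 2.97-fold and 2.99-fold. Ssr4, the delta subunit of TRAP, was 99.76 and 87.50 against 238.4 and 252.8 CPM and 94.67 and 89.80 against 256.3 and 289.5 CPM. Ssr2, its beta subunit, changed least of the 6, with log2 rises of 0.32 and 0.46, and its dorsal call was lost without any 1 of the 4 libraries (adjusted p up to 0.0932).

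The sensors behaved differently at this step. Ern1 was 233.9 and 206.3 CPM in dorsal and 223.4 and 200.0 CPM in ventral Ins1+ libraries, with log2 changes from Ngn3-high of 0.08 and -0.10 that did not pass the test. Eif2ak3 rose to 75.07 and 82.00 CPM in dorsal and 76.56 and 78.39 CPM in ventral Ins1+ libraries, 2.08-fold and 2.00-fold. Atf6 rose to 246.1 and 269.8 CPM and to 233.7 and 283.1 CPM (log2 0.72 and 0.64). The Ern1 gain was thus complete in Ngn3-high cells and the Eif2ak3 gain appeared after them, while Atf6 rose at both steps. These comparisons share the Ngn3-high libraries, so a library that is off there would move both steps in opposite directions.

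The transcription factors Xbp1, Atf4 and Ddit3, which act below the sensors, rose on both sides. Xbp1 was 238.2 and 287.2 CPM in dorsal and 240.9 and 289.4 CPM in ventral Ins1+ libraries, 2.01-fold and 2.15-fold above Ngn3-high cells. Atf4, the factor translated when PERK is active, was 154.8 and 160.7 against 238.2 and 267.0 CPM on the dorsal and 165.9 and 171.2 against 241.0 and 302.0 CPM on the ventral side, 1.60-fold and 1.61-fold. Ddit3, which encodes CHOP, the factor tied to cell death under long ER stress, was 8.46 and 7.34 against 50.05 and 71.83 CPM on the dorsal side and 11.16 and 8.07 against 50.07 and 82.76 CPM on the ventral side. Ddit3 was 7.61-fold and 6.92-fold higher in Ins1+ cells (log2 2.93 and 2.79, SE 0.28), and its exons overlap those of Mars and Gm4189 on the opposite strand. Trib3, a pseudokinase induced by CHOP, stayed near the floor, at 0.94 and 1.28 against 2.73 and 2.92 CPM on the dorsal side (log2 1.38, SE 0.44, adjusted p = 0.0158, up to 0.15 with a library left out) and 1.19 and 2.29 against 2.47 and 4.38 CPM on the ventral side (0.93, adjusted p = 0.067).

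**Figure D3:**
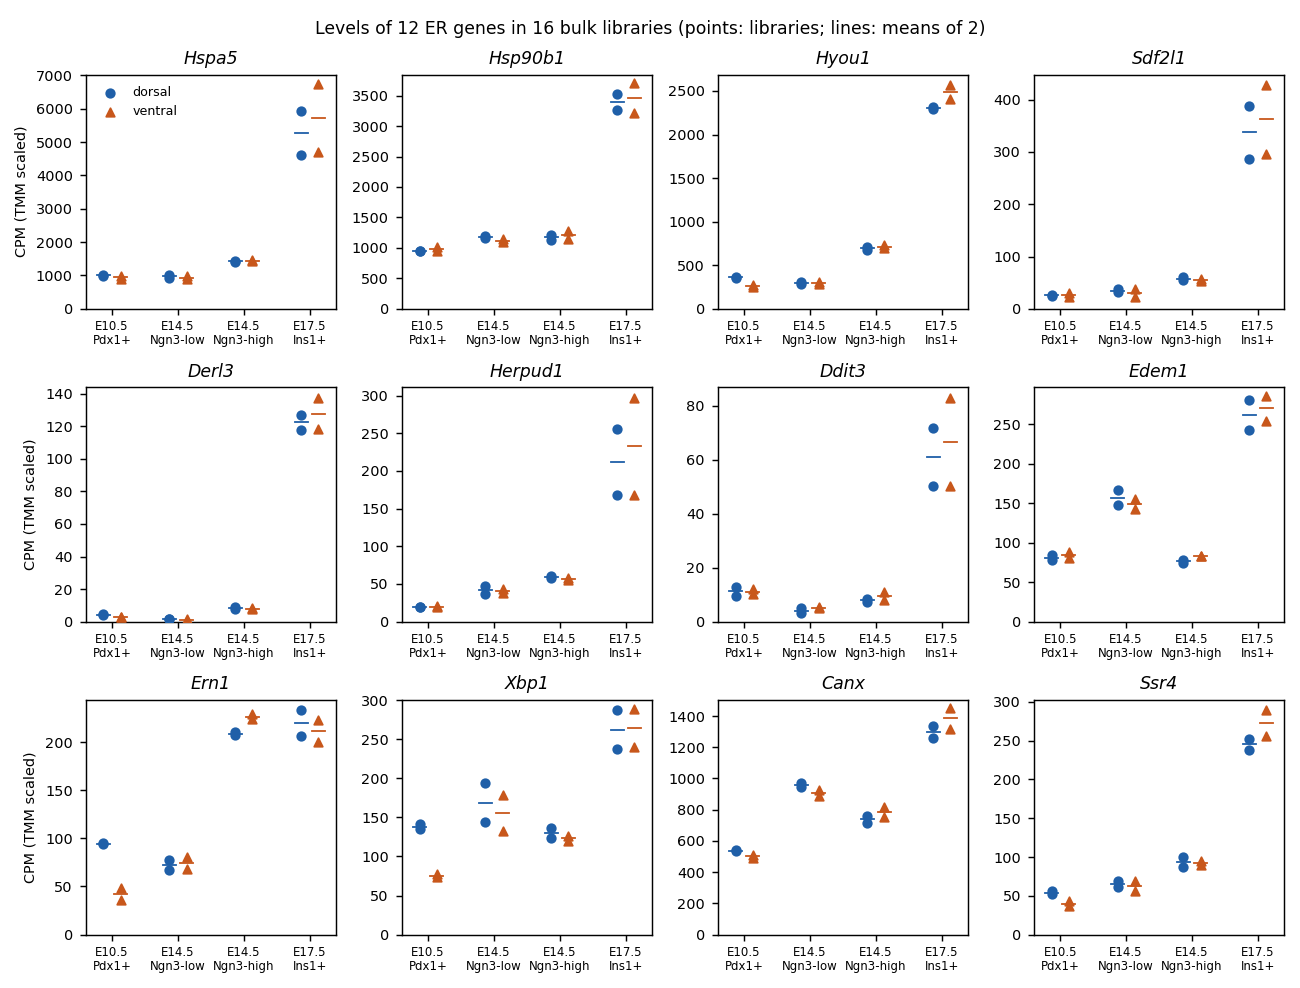
CPM of 12 of the genes in the 16 bulk libraries, dorsal (circles) and ventral (triangles), with the mean of 2 libraries as a line; each axis starts at 0. Hspa5 stays between 886.5 and 1449 CPM before E17.5 and lies between 4606 and 6732 CPM in Ins1+ libraries, Ern1 reaches its level in Ngn3-high cells, and Edem1 and Canx dip there.

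Other genes of the pathway were counted in the same way. Of 18 other ER folding genes tested, 13 rose and none fell from Ngn3-high to Ins1+ cells on the dorsal side, as did 23 of 26 other translocation and glycosylation genes (1 fell) and 8 of 12 other degradation genes (none fell). Of 20 other UPR and integrated stress genes 13 rose and 4 fell. At the step from Ngn3-low to Ngn3-high cells the counts of these lists on the dorsal side were 8 up and 5 down of 18, 9 and 4 of 26, 8 and 0 of 12, and 5 and 3 of 20, beside 61.3% of all genes changed. The translocation and the UPR lists thus changed in a smaller share of their genes than all genes did. Ero1lb, the pancreatic oxidase that recharges the isomerases, rose at both steps, by 3.38 (SE 0.12) and 2.65 (SE 0.12) on the log2 scale. Fkbp11, a peptidyl-prolyl isomerase, fell by 1.09 and then rose by 3.60, and Kdelr3, a receptor that returns ER proteins from the Golgi, fell by 2.39 and then rose by 3.30. Sesn2, a stress-induced inhibitor of TORC1, went the other way, up by 3.57 and down by 1.70. The early-response factor Atf3 rose at the second step by 3.53 (SE 0.86) and Chac1, a glutathione-degrading target of Atf4, by 2.76 (SE 0.49).

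Markers of other cells and stress genes also differed. The acinar list summed to 4446 to 4782 CPM in dorsal and 4209 to 4357 CPM in ventral Ins1+ libraries, and all 12 tested acinar genes rose from Ngn3-high cells on both sides. Acinar sums in Ngn3-low cells were 3452 to 4815 CPM, but of unlike content. Cpa1 averaged 1203 (dorsal) and 937.1 CPM (ventral) in Ngn3-low and 363.5 and 283.8 CPM in Ins1+ cells. Try4 averaged 0.031 and 0.059 CPM against 9.87 and 13.0 CPM. Against Ngn3-low cells 35 members rose and none fell on both sides, with member medians of 1.53 and 1.63 on the log2 scale. Of all genes 64.9% (dorsal) and 64.6% (ventral) changed there, and 31.4% and 31.1% rose. A list of 12 heat shock and early response genes summed to 4284 to 8734 CPM in dorsal and 5106 to 13220 CPM in ventral Ins1+ libraries, against 1846 to 1887 and 1981 to 2267 CPM in Ngn3-high ones. In both Ins1+ groups library 2 held the higher sum, and 33 (dorsal) and 34 (ventral) of the 36 members were also higher in library 2, by a median ratio of 1.10 and 1.16 and by up to 1.51 for Herpud1 on the dorsal and 1.78 for Trib3 on the ventral side. Without library 2 the members called were 32 on either side. Mesenchyme genes summed to 856.5 to 2058 and 1188 to 2929 CPM in Ins1+ libraries and to at most 162.0 CPM in Ngn3-high ones. The part of these signals in the fold changes was not tested.

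The 2 sides did not differ detectably in these genes at E14.5 or E17.5. Between ventral and dorsal Ngn3-low, Ngn3-high or Ins1+ cells, edgeR called 0 members, with 0 at an unadjusted p under 0.05 and 0 by DESeq2, where 0.017%, 0.537% and 0.0283% of all genes were called. The test of the side difference in each step called 0 members as well (0 by unadjusted p and 0 by DESeq2), where 0.0283% of all genes were called at the first and 0.0396% at the second step. Ventral minus dorsal log2 differences ran from -0.09 to 0.26 in Ins1+ cells (SE 0.08 to 0.40), from -0.14 to 0.70 in Ngn3-high cells (SE 0.08 to 0.44) and from -0.38 to 0.36 in Ngn3-low cells (SE 0.08 to 0.40). The largest errors belong to low genes such as Trib3, and the median SE was 0.10. Without regard to the test, 32 members were higher and 4 lower in ventral Ins1+ cells. The counts were 25 and 11 in Ngn3-high and 4 and 32 in Ngn3-low cells. Member medians were 0.09, 0.03 and -0.08, beside 0.00, 0.00 and -0.01 for all genes. The side difference of the first step was above 0 in 32 members and below 0 in 4. Side differences of this size are thus neither shown nor excluded. A test on simulated counts found 89% of 2-fold changes in the Ins1+ comparison. These changes were placed only in genes above a low floor of mean level.

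The sides did differ at E10.5. In Pdx1+ bulk libraries 12 members were lower in ventral cells and none higher, where 24.7% of all genes changed and 14.49% were lower. The median member difference was -0.20 and that of all genes -0.03. Ern1 was 94.29 and 95.00 CPM in dorsal and 35.91 and 48.21 CPM in ventral libraries (log2 -1.16, SE 0.13, edgeR adjusted p = 3.5e-06), and Xbp1 was 141.1 and 134.6 against 77.06 and 73.89 CPM (-0.87, SE 0.16). Dnajc3 was 125.4 and 125.1 against 71.01 and 73.64 CPM (-0.79, SE 0.13). The others were Creld2 (75.76 and 72.91 against 48.33 and 47.88 CPM), Manf (142.4 and 138.4 against 97.17 and 86.77 CPM), Ssr2 (224.5 and 215.8 against 168.4 and 138.1 CPM), Hyou1, Dnajb11, Ssr4, Sel1l, Sec61b and Pdia6. Hspa5 was 1025 and 974.1 against 984.1 and 904.7 CPM, with overlapping libraries, and Hsp90b1 was 944.1 and 943.1 against 1008 and 955.4 CPM. Neither passed the test. Sdf2l1 (26.79 and 25.11 against 29.45 and 21.78 CPM), Atf6 (70.72 and 79.53 against 64.44 and 63.25 CPM), Eif2ak3 (23.89 and 24.10 against 23.19 and 22.28 CPM), Ddit3 (9.64 and 12.85 against 10.16 and 12.13 CPM) and Herpud1 (19.39 and 19.18 against 20.42 and 19.45 CPM) did not pass the test. Without ventral library 2 the count was 7, and Creld2, Dnajb11, Pdia6, Ssr4 and Sec61b lost their call.

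The same libraries differed in their cell content. Endocrine cargo genes summed to 4683 to 4723 CPM in dorsal and 276.3 to 350.4 CPM in ventral Pdx1+ libraries, and Sst was at 0 in the ventral ones. The alpha-cell list summed to 4223 to 4413 against 243.3 to 301.0 CPM, and a hepatoblast list of 13 genes to 1975 to 2149 against 4495 to 4953 CPM. Mesenchyme genes summed to 91.28 to 113.3 against 604.0 to 990.3 CPM. Among the other lists, 8 ER folding genes fell and 0 rose in ventral cells, led by Ero1lb at -2.78 (SE 0.15), and Sesn2 fell by 2.90 (SE 0.12). The part of early endocrine cells in the member differences was not tested in bulk, but the sorted single cells give the values of such cells on their own.

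In single cells, the E10.5 dorsal Pdx1-low sort holds early endocrine cells with endocrine cargo at 5.68% ± 1.08 of reads (SD, n = 6 sets), against 0.0325% in dorsal Pdx1-high progenitors. The share of the 36 ER genes was 1.05% ± 0.156 in the former and 1.04% ± 0.112 (n = 5) in the latter. Reads were summed over the cells of each set, and 38 sets with at least 3 cells served as replicates. Of the 36 members 4 were higher and 6 lower in Pdx1-low sets, where 20.9% of all genes changed (9.97% higher and 10.9% lower), so the count stands close to that background. DESeq2 called 11, of which 6 were higher and 5 lower. The median member difference was -0.12 and that of all genes 0.02. The ER share of the groups thus differed by less than 1 SD, beside a difference in cargo of this size.

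The higher members were 3 TRAP subunits and Manf. Ssr2 was 519.6 to 981.1 CPM (median 869.8) in the 6 Pdx1-low sets and 389.5, 391.5, 267.0, 374.7 and 378.3 CPM in the 5 Pdx1-high sets. Ssr4 was 155.8 to 341.8 CPM (median 230.0) against 76.50, 120.6, 53.07, 99.06 and 119.7 CPM. No set overlapped in either gene, the log2 differences were 1.16 (SE 0.18, adjusted p = 2.51e-05) and 1.38 (SE 0.22, adjusted p = 3.46e-05), and the calls held without any 1 of the 11 sets. The median cell held 219.8 CPM of Ssr4 in Pdx1-low and 100.2 CPM in Pdx1-high cells, with reads in 40 of 40 and 27 of 28 cells. Manf was 153.7 to 389.7 CPM against 131.9, 201.2, 113.3, 224.5 and 80.24 CPM (log2 0.88, SE 0.28) and Ssr1 348.8 to 495.5 against 282.1, 329.7, 156.8, 442.2 and 198.1 CPM (0.60, SE 0.21), both with overlap. Manf lost its call without Pdx1-high set 6 or Pdx1-low set 5 (adjusted p up to 0.0615), and Ssr1 without any of 4 sets (up to 0.0657).

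The lower members were Edem1, Dnajb9, Xbp1, Derl2, Canx and Sec61a1. Xbp1 was 217.9, 414.5, 194.9, 384.8 and 217.1 CPM in Pdx1-high sets and 49.09 to 235.5 CPM in Pdx1-low sets (log2 -1.07, SE 0.34). Edem1 was 43.72, 36.83, 20.71, 63.75 and 133.2 CPM against 3.70 to 31.92 CPM (-1.49, SE 0.45), and Dnajb9 43.00, 12.08, 63.07, 67.76 and 36.68 CPM against 6.14 to 39.00 CPM (-1.48, SE 0.43). Canx was 645.2, 761.6, 425.5, 732.1 and 421.4 CPM against 311.9 to 432.8 CPM (-0.62, SE 0.15). Sets overlapped in each of these genes. Canx kept its call without any 1 set. Without Pdx1-high set 6, where Edem1 is highest, its difference was -0.90 (adjusted p = 0.147), and without Pdx1-high set 5 the calls of Dnajb9, Xbp1, Derl2 and Sec61a1 were lost, and either omission left 6 members called.

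BiP did not follow the endocrine cargo in dorsal cells at E10.5. Hspa5 was 644.3 to 1665 CPM (median 944.7) in dorsal Pdx1-low and 1107, 1024, 1244, 1331 and 674.5 CPM in dorsal Pdx1-high sets, and its groups overlapped fully. Hsp90b1 (465.6 to 1170 against 619.0 to 925.8 CPM), Sdf2l1 (42.08 to 67.82 against 31.41 to 80.21 CPM), Creld2 (76.52 to 248.9 against 71.53 to 136.9 CPM), Herpud1 (17.68 to 86.56 against 17.37 to 104.0 CPM) and Sec61b (112.5 to 174.3 against 67.35 to 258.9 CPM) also overlapped and did not pass the test. The low genes Eif2ak3 (0.610 to 18.33 against 3.81 to 18.41 CPM), Ern1 (4.27 to 25.20 against 2.14 to 34.93 CPM), Atf6 (17.02 to 89.84 against 17.26 to 172.3 CPM), Ddit3 (2.16 to 8.14 against 0.119 to 48.48 CPM) and Derl3 (0 to 10.39 against 0 to 21.42 CPM) spread too widely for a difference to be seen. Dnajc3 was 58.24 to 113.9 against 98.35 to 236.7 CPM and Atf4 57.63 to 113.3 against 74.51 to 311.5 CPM. Trib3 was 0 to 8.46 against 0 to 113 CPM, highest in Pdx1-high set 5, and did not pass the test. Scaled on the spike-ins in place of TMM, which moved the median of all genes from 0.02 to 0.45, edgeR called 0 members in this comparison and 0 against ventral Pdx1-low cells. The share of all genes called under that scaling is not given here. A loss of calls over all genes can thus not be told apart from a loss in the members. In simulated sets of this comparison, changes were placed only in genes above a low floor of mean level. The test found 9% of these changes at 2-fold and 44% at 4-fold. The simulation changed 200 of 19285 genes, where 4025 were called in the data, so its rates do not carry over to the members. The median SE of the members was 0.26, and Sec61a1 passed the test at a log2 difference of -0.46 (SE 0.15). Genes below the floor were not covered.

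**Figure D4:**
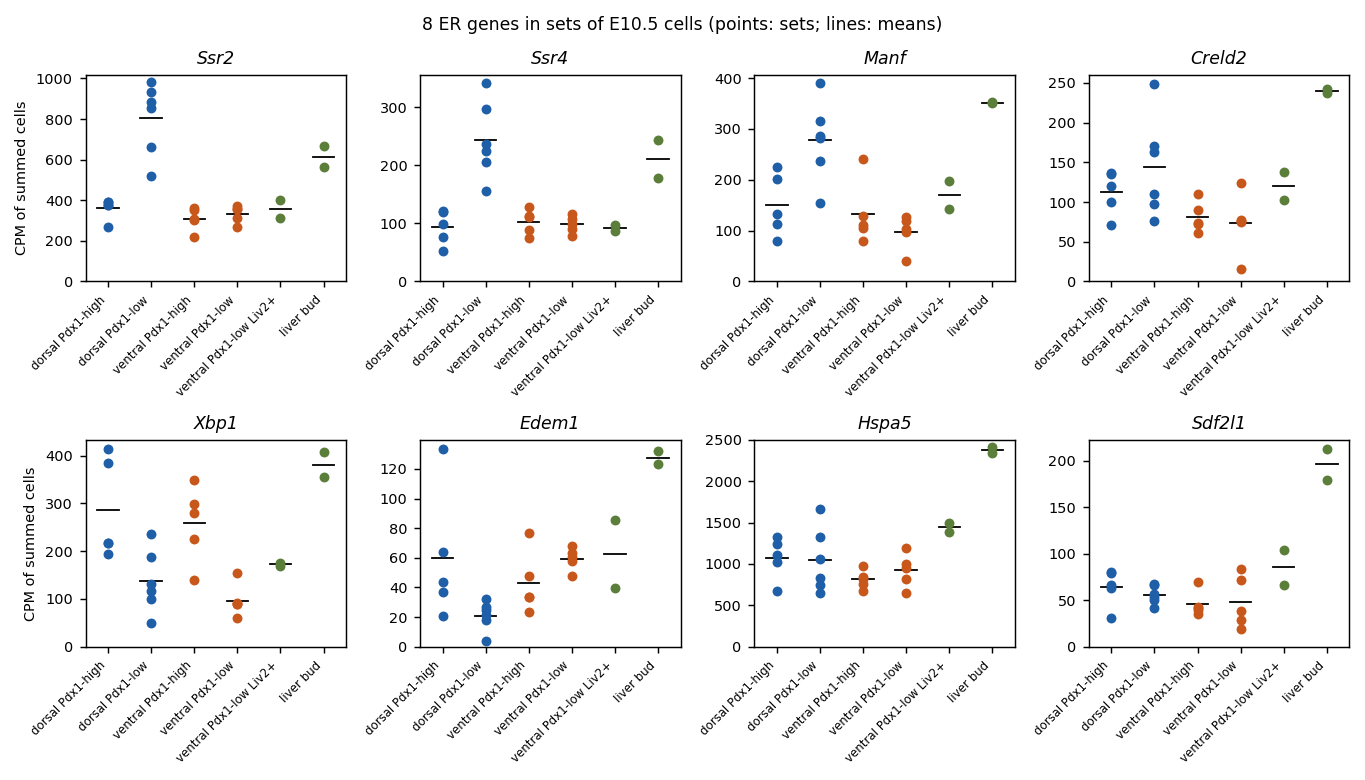
CPM of 8 genes in sets of E10.5 cells (points) with group means (lines); dorsal groups are blue, ventral groups orange, and Liv2-sorted groups green, and each axis starts at 0. Ssr2 and Ssr4 are highest in dorsal Pdx1-low sets without overlap with Pdx1-high sets, and Hspa5 and Sdf2l1 in the 2 liver bud sets.

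Against ventral Pdx1-low cells, which hold little endocrine cargo (0.096% of reads), the dorsal Pdx1-low sets had 6 members higher and 3 lower, where 21.9% of all genes changed (9.9% higher and 12% lower). The total of 9 members called stands close to that background. Ssr2 (267.4 to 370.3 CPM in the 5 ventral sets) and Ssr4 (79.09 to 115.5 CPM) were again higher on the dorsal side, by 1.28 and 1.31 on the log2 scale. Manf (41.16 to 126.7 CPM) was higher by 1.51 (SE 0.29, adjusted p = 0.000233), with no overlap. Creld2 was 76.80, 74.79, 124.2, 15.21 and 75.53 CPM in the ventral sets (0.98, SE 0.34, adjusted p up to 0.084 with a set left out), and Pdia6 and Calr differed by 0.52 and 0.44. Canx, Edem1 and Derl2 were lower in the dorsal sets without overlap, by 0.67, 1.49 and 0.74. Of the 12 members higher in dorsal Pdx1+ bulk libraries, 5 (41.7%) were among the 6 higher in dorsal Pdx1-low sets (83.3%), namely Creld2, Manf, Pdia6, Ssr2 and Ssr4. Over all genes tested in both comparisons, 1097 were shared, 43.7% of the 2513 higher in dorsal bulk libraries and 60.5% of the 1812 higher in dorsal sets, so the members' overlap is a description and was not tested against that of all genes. Xbp1, lower in ventral bulk libraries, was 49.09 to 235.5 CPM in dorsal and 60.09 to 153.4 CPM in ventral Pdx1-low sets, which overlapped. Ventral Pdx1-low sets held mesenchyme genes at 18.78 to 2037 CPM and hepatoblast genes at 2417 to 10060 CPM, whose part was not tested. Between ventral and dorsal Pdx1-high sets edgeR called 0 members (4 at an unadjusted p under 0.05, 0 by DESeq2), where 0.0104% of all genes were called. Without regard to the test, 31 members were lower and 5 higher in ventral sets, with a member median of -0.22 beside 0.00 for all genes. A side difference of this size in Pdx1-high cells is thus neither shown nor excluded.

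Other genes of the pathway also differed between dorsal Pdx1-low and Pdx1-high sets. Of the other translocation and glycosylation genes 8 were higher and 3 lower, among them the signal recognition particle subunits Srp9 (log2 1.29, SE 0.25) and Srp14 (1.05, SE 0.20) and the oligosaccharyltransferase subunit Dad1 (0.99, SE 0.18). Of 19 other ER folding genes 4 were higher and none lower, led by the isomerase-like Tmx1 (1.59, SE 0.26) and Erp29 (1.52, SE 0.19). Sesn2 was higher by 4.52 (SE 0.98), and the Atf4 targets Eif4ebp1 and Psat1 were lower by 2.71 and 1.78. Both targets were highest in Pdx1-high set 5, at 184 CPM (next set 85.68) and 172.7 CPM (next set 127.7). A fit without that set is not given for these genes.

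The liver bud, sorted as Liv2+, had the highest mean read share of the list among the 12 groups of cells. The 36 genes took 1.59% ± 0.0665 of reads (n = 2 sets, 23 cells), and 17 plasma protein genes took 4.16% ± 0.644. In ventral Pdx1-low Liv2+ sets the shares were 1.07% ± 0.0566 and 1.13%. Against ventral Pdx1-high progenitors 18 members were higher and none lower, where 4.97% of all genes changed and 2.87% were higher, with a member median of 0.98 on the log2 scale beside 0.00 for all genes. Those called were 7 of 10 ER chaperones, all 6 lectin chaperones and isomerases and 5 of 6 translocon and TRAP genes, and 0 of 7 UPR and 0 of 7 degradation genes. The degradation genes Edem1, Herpud1 and Derl1 had an unadjusted edgeR p under 0.05. Herpud1 was 156.9 and 143.2 CPM in liver bud and 14.89 to 83.67 CPM in Pdx1-high sets. Without regard to the test, 30 members were higher and 6 lower, so the split by role describes calls only. Against dorsal Pdx1-low endocrine cells 17 members were higher and none lower, where 15.52% of all genes changed and 10.1% were higher, with a member median of 0.71 beside -0.16.

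Hspa5 was 2412 and 2338 CPM in liver bud sets, against 980.7, 818.5, 674.4, 848.1 and 763.1 CPM in ventral Pdx1-high sets, a 2.91-fold difference (log2 1.54, SE 0.25, adjusted p = 0.000164). Hsp90b1 was 1850 and 1915 CPM against 632.9 to 826.0 CPM, and Sdf2l1 212.8 and 179.2 CPM against 42.56, 41.86, 39.25, 70.08 and 35.01 CPM (a 4.29-fold difference). Calr was 1361 and 1111 CPM against 450.0 to 593.9 CPM. Creld2 was 241.8 and 237.3 CPM against 61.13 to 110.4 CPM, and Manf 352.1 and 350.7 CPM against 80.43 to 241.2 CPM. Dnajc3 was 187 and 258.4 CPM against 53.99 to 117.6 CPM. Both liver bud sets lay above every progenitor set in all 18 called members. Against dorsal Pdx1-low sets the largest differences were in Edem1 (131.8 and 123.6 against 3.70 to 31.92 CPM, log2 2.59, SE 0.55), Sdf2l1 (1.81, SE 0.37), Dnajb9 (28.49 and 76.99 against 6.14 to 39.00 CPM, log2 1.73), Canx (1224 and 1260 against 311.9 to 432.8 CPM, log2 1.68), Ssr3 (682.3 and 948.7 against 197.3 to 358.5 CPM, log2 1.52) and Xbp1 (406.7 and 354.3 against 49.09 to 235.5 CPM, log2 1.48). The sets of Edem1, Canx, Ssr3 and Xbp1 did not overlap, while those of Dnajb9 did. Dnajb9 was at 0.84 without liver bud set 2 (adjusted p up to 0.562 over the sets left out). Ssr2 and Ssr4, at 561.5 and 665.1 CPM and 178.2 and 244.2 CPM in liver bud sets, did not pass the test against the endocrine cells.

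The number of calls against the liver bud rests on its 2 sets. Without liver bud set 2 there were 7 members against ventral Pdx1-high cells and 8 against dorsal Pdx1-low cells, and without liver bud set 1 there were 10 in the latter. Without ventral Pdx1-high set 4 there were 12, and without dorsal Pdx1-low set 2 there were 10. Where 1 liver bud set is left, it is assumed to vary like the other groups. Liver bud minus ventral Pdx1-low Liv2+ sets gave 0 members by edgeR (15 at an unadjusted p under 0.05, and 1 by DESeq2), where 0.508% of all genes were called, and the member median was 0.74 beside -0.06. Hspa5 was 1387 and 1500 CPM in those Liv2+ sets and Sdf2l1 66.42 and 104.5 CPM, below both liver bud sets. In simulated sets of this comparison, 0% of 2-fold and 8% of 4-fold changes were found, so the fit over all sets could miss differences of this size. A fit on only the groups compared called 9 members, all higher in liver bud, and each of its groups has 2 sets. The share of all genes called in that fit is not given here, so its count has no background beside it.

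Among the other lists, 12 translocation and glycosylation genes, 5 ER folding genes, 2 degradation genes and 2 UPR genes were higher in liver bud than in ventral Pdx1-high sets and none lower. Fkbp11 was higher by 5.26 (SE 1.30), Pdia5, a disulfide isomerase, by 2.71 (SE 0.61), Serp1, a translocon-stabilising protein, by 1.72 (SE 0.35), and the Atf4 targets Psat1 and Asns by 4.13 and 2.30. Against dorsal Pdx1-low sets Serp1 was higher by 2.29 and the catalytic oligosaccharyltransferase subunits Stt3b and Stt3a by 2.02 and 1.57, while Erp29 and Tmx1 were lower by 1.43 and 1.16. Psat1 and Eif4ebp1, lower in endocrine cells, were higher in liver bud sets by 5.49 and 3.38.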

How the data were processed

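Bulk RNA-seq (poly(A), directional kit, sorted pools of cells) and Smart-seq2 single cells were deposited by the authors as read counts per gene, made with TopHat2 2.1.0, Bowtie2 and HTSeq 0.6.0 on GRCm38/mm10 per the submitters' processing notes. Whether the counting used strand is not given in the sources used here. Deposited RPKM values were used only for levels per length, and 0 of 327328 differed by more than 0.0051 from values recomputed from the counts. The depth was 8779418 to 24551520 reads per bulk library and 201191 to 1738015 per cell.

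Counts were tested with edgeR 4.0.16 (R 4.3.3; filterByExpr, TMM, robust quasi-likelihood fit, Benjamini-Hochberg adjustment at 0.05), in 1 model over 16 bulk libraries and 1 over 38 sets of 3 or more cells, whose cells were summed. The cells of a set share a set number in their titles and were never treated as replicates. SE is the log2 change divided by the square root of F. DESeq2 1.42.0, other scalings, filters, thresholds, a replicate block and the omission of each library or set were alternatives, and the steps were tested on simulated data. All 25 ventral E9.5 cells whose growth label describes human stem cells were kept as mouse cells and enter no comparison. The 36 members and all lists were chosen with earlier results of these data known. All members were accounted for in the counts. Values or ranges by library or set are given for 17 fixed genes and for up to 6 per direction with the largest changes, though not in every comparison. Of each other list up to 4 changed genes are given. Some members, such as Manf, Ddit3 and Hsp90b1, overlap exons of other genes, and their reads are uncertain to that extent.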

Additional observations from a re-analysis of the deposited data

Results flagged for a closer look

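Single sets stood far from the rest of their group in 7 of the 68 checks of a gene in a group of 5 or 6 sets, where chance gives about 1 in 20 of independent checks. These checks are not independent, since 4 of the 7 come from 1 set. Dorsal Pdx1-high set 5, with 5 cells, held Atf4 at 311.5 CPM (nearest other set 108.5), Ddit3 at 48.48 CPM (nearest 8.25), Trib3 at 113 CPM (nearest 5.75) and Dnajc3 at 236.7 CPM (nearest 131.9). Its highest cell held 1126 CPM of Atf4 and 626 CPM of Trib3, and 2 of its 5 cells had Ddit3 reads. Ventral Pdx1-high set 5 held Atf4 at 301.8 CPM (nearest 122) and Sdf2l1 at 70.08 CPM (nearest 42.56). Dorsal Pdx1-low set 1 held Trib3 at 8.46 CPM (nearest 1.44).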

How the results depend on the processing

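Required to exceed a 1.5-fold change, the calls were 12 (dorsal) and 13 (ventral) from Ngn3-low to Ngn3-high, 1 between the sides at E10.5, 3 for dorsal Pdx1-low against Pdx1-high and 3 against ventral Pdx1-low sets, and 7 for liver bud against either group. Spike-in scaling gave 0 for both comparisons of dorsal Pdx1-low sets, and moved the median of all genes to 0.73 and 1.28 in the liver bud comparisons with dorsal Pdx1-low and ventral Pdx1-high sets. DESeq2 called 14 (12 higher, 2 lower) against ventral Pdx1-low sets, 11 (6 and 5, where edgeR called 4 and 6) against Pdx1-high, 12 for liver bud against dorsal Pdx1-low, and 1 against Liv2+ sets. Fitted on only the groups compared, the counts were 5 for Pdx1-low against Pdx1-high and 9 for liver bud against Liv2+ sets. With sets of 5 or more cells they were 6 and 1. Liver bud against dorsal Pdx1-low gave 9 with RLE and 11 with upper quartile scaling. The shares of all genes called under the alternatives are not given here, so their counts have no background beside them. With 1 sample left out the counts ran from 7 to 10 between the sides at E10.5, from 6 to 10 and from 7 to 12 for dorsal Pdx1-low against Pdx1-high and ventral Pdx1-low, and from 8 to 18 and 7 to 18 for liver bud against dorsal Pdx1-low and ventral Pdx1-high sets.

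With a replicate block the calls were 30 and 28 (Ngn3-low to Ngn3-high, dorsal and ventral, 24 and 24 without it), 35 and 34 (to Ins1+), 18 between the sides at E10.5 (12 without it), 9, 10, 14 and 17 in the set comparisons with calls, and 0 in the others. The labels do not say that a number marks a shared litter, day or batch, and each bulk group has only 2 samples, so a pairing could not be established. In bulk the deviations of same-numbered samples correlated at 0.122 to 0.482 between groups of the same day. Across days they correlated at 0.014 and 0.041 between Ngn3-high and Ins1+ cells, and at 0.158 and 0.211 between Ngn3-low and Ins1+ cells. In sets the correlations ran from -0.072 to 0.131. The causes of these shifts were not tested. Depth limits low genes such as Trib3 and Derl3 in sets.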

Other observations

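Of 20 other UPR and integrated stress genes, 10 had their group's highest level in dorsal Pdx1-high set 5, against 2 or 3 in each of the other 4 sets. In ventral Pdx1+ cells 11 did so in set 3, against 4 and 5 in the other sets. In ventral Pdx1-high cells the counts were 6 in set 5 and 2 to 5 in the others, so set 5 was close to them. In ventral Pdx1+ set 3, of 4 cells, Herpud1 was 387.9 CPM against 50.05 and 56.13 CPM in the other sets of its group, Derl3 131.9 against 11.05 and 3.55 CPM, and Ddit3 102 against 18.6 and 8.04 CPM. Its highest cell held 1735 CPM of Herpud1 and 752.7 CPM of Derl3. The E15.5 liver set, a single set of 4 cells, had the 36 genes at 0.513% of reads beside plasma protein genes at 8.51%, and no comparison was made with it.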
